A study of Mus musculus with 48 samples.

Results

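Keratins, hair keratin-associated proteins and trichohyalin were followed through RNA of 48 B16-D5 mouse melanoma tumors. The members were all protein-coding genes whose GENCODE vM21 symbol starts with Krt or Krtap and a digit, plus Tchh, and they numbered 111 of the 55450 genes in the count table. They comprised 53 keratins, 57 keratin-associated proteins and Tchh. The group of genes was chosen by the levels measured here, since single tumors stood far above the others in it, so the levels in those tumors are given as a description. The comparisons between groups include those tumors, and their fold changes and counts of members are a description too, from which nothing about the members is read.

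B16-D5 is a subclone of the B16 melanoma line of C57BL/6 mice, and its cells were placed under the flank skin 8 days before treatment began. Host mice came at an age of 4 weeks and were kept for 2 more before use. In the first experiment all hosts were WT C57BL/6J mice, whose tumors were untreated at 0 h, or were untreated, given control IgG or given anti-PD-1 antibody at 6 h, day 1 and day 3. In the second experiment hosts were WT or iNOS KO mice at day 7, untreated or given IgG or anti-PD-1. Antibody was given at 250 µg on days 0 and 3, so tumors taken at 6 h and day 1 preceded the day 3 dose. The study's text does not say whether day 3 tumors were taken before or after it. Each of the 16 groups held 3 tumors, and nothing in the labels says that tumors shared an animal. The knockout is one of the host: the injected tumor cells came from a line without it.

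Keratins are the intermediate filament proteins of epithelial cells, and a filament forms from a type I and a type II keratin paired together. Which pair a cell makes follows its position: basal cells of the epidermis make Krt5 with Krt14 or Krt15, cells that leave the basal layer switch to Krt10 with Krt1 or Krt77, and the inner root sheath of a growing hair makes Krt25 to Krt28 with Krt71 to Krt73. The hair shaft adds its own hair keratins and the keratin-associated proteins, small proteins rich in cysteine or in glycine and tyrosine that cross-link its filaments, while trichohyalin (Tchh) hardens the inner root sheath and the medulla. Melanoma cells are not epithelial, and the skin above and around a subcutaneous tumor holds all of these layers.

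The members lie in a few dense clusters of the mm10 genome. On chromosome 11, 50 of them lie between 99232761 and 100269871 (1037.1 kb), where the type I keratins and 23 keratin-associated protein genes are found. On chromosome 15, 26 lie between 101347444 and 102032027 (684.6 kb), where the type II keratins are found. On chromosome 16, 24 keratin-associated protein genes lie between 88610705 and 89571183, and the remaining members are on chromosomes 1, 3, 7 and 10. The keratin-associated protein genes are compact, 54 of the 57 having 1 exon block, whereas each of the 53 keratins had more than 1.

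The starts of these genes share letters as well. The 100 bases before the RefSeq start (GRCm38.p6, the same build) are printed here for 8 members, all on the minus strand. They were picked to show hair genes with the letters TATAAA near the start and epidermal genes without these exact letters. Capitals mark these letters, a form of the core of the TATA box, a sequence that positions the start of transcription. Krt5 has the like letters gataaaa and Krt77 tatatata near the start, which a search for exactly TATAAA does not count. Krt28 and Krt73 were named after their values were seen, and the other 6 by level.
Krt71 (inner root sheath, chr15:101743098-101743197): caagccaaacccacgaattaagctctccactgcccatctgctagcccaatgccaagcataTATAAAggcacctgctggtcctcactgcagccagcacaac
Krt25 (inner root sheath, chr11:99322952-99323051): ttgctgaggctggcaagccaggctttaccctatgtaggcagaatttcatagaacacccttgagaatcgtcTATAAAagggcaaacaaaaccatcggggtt
Krt28 (inner root sheath, chr11:99374904-99375003): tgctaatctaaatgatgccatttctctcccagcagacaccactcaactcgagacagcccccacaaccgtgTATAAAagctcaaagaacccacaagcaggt
Krt73 (inner root sheath, chr15:101802361-101802460): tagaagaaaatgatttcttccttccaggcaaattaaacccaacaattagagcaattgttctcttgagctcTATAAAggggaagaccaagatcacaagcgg
Krtap3-1 (hair shaft, chr11:99566631-99566730): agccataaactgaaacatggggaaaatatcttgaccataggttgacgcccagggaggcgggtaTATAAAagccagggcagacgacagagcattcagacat
Krtap4-1 (hair shaft, chr11:99628240-99628339): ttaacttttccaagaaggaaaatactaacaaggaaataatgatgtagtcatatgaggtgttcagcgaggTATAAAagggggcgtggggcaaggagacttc
Krt5 (basal epidermis, chr15:101712906-101713005): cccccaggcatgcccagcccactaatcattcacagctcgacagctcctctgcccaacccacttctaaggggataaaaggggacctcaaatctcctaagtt
Krt77 (suprabasal epidermis, chr15:101869706-101869805): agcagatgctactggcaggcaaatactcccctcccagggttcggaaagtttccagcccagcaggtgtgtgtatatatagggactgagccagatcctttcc

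RefSeq promoters of 250 bases before to 50 after the start were matched to 88 of the 111 members. TATAAA, on either strand, was found in 61 of the 88 (69.3%), against 4234 of 27025 genes with such a promoter (15.7%). Between 45 and 16 bases before the start, on the gene's own strand, it was found in 45 of 88 members (51.1%) and in 695 of all genes (2.57%). By class these were 18 of 21 keratin-associated genes of chromosome 11, 10 of 23 of chromosome 16, 5 of 8 inner root sheath genes and 4 of 9 hair shaft keratins, but 0 of 2 basal and 1 of 4 suprabasal genes. The other 5 motifs searched, on both strands, lay closer to the share over all genes: CTTTGA was in 28.4% of members against 18.2%, CCAAT in 37.5% against 41.1%, TGACTCA in 7.95% against 5.95%, TTTATTG in 2.27% against 5.33%, and GCCNNNGGC in 9.09% against 18.5%. Genes within a cluster arose by duplication and are not independent of each other. These are letters in a window and say nothing on whether a factor binds there.

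Gene counts per library summed to between 25574203 and 47687872 in the first experiment and between 11625862 and 40959309 in the second. Levels are given as CPM, counts scaled to a common library size with TMM factors set within each experiment. The limit that a count of 0 allows, 3 counts, was 0.0688 to 0.105 CPM per library in the first experiment and 0.0762 to 0.194 in the second, and it covers counting error only. Melanocyte lineage genes, the defining genes of the B16 cells, summed to between 12042 and 27293 CPM in every library. Nos2, the gene for iNOS, did not separate the genotype labels, since the 9 day 7 tumors labelled iNOS KO had 1.15 to 5.92 CPM (median 4.19) and the 9 labelled WT had 1.40 to 7.18 (median 3.28). Gene counts do not show which exons the reads came from, so the tumors are called labelled iNOS KO here. At day 7, 3 libraries stood apart in counts on 1502 sensory receptor genes, such as those for odours. WT anti-PD-1 replicate 3 had 7.83 counts per kb of exon on them and replicate 4 of that group 4.45. Labelled iNOS KO untreated replicate 1 had 3.87, and the others had at most 1.71. These 3 libraries also had the lowest gene counts, 11625862, 18797177 and 23267834 in that order, against at least 25574203 in any other library.

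Most tumors carried little of the members in sum and a few carried a great deal. The summed level of the 111 genes ran from 24.4 to 6700 CPM in the first experiment, with a median of 49.7, and from 22.8 to 1727 in the second, with a median of 43.1. In the first experiment it was highest in WT untreated 0 h replicate 3 (6700) and WT anti-PD-1 6 h replicate 5 (4901). Below them came WT IgG day 1 replicate 6 (967), WT IgG 6 h replicate 1 (446), WT untreated 0 h replicate 2 (412) and WT anti-PD-1 6 h replicate 1 (305). In the second it was highest in labelled iNOS KO untreated replicate 4 (1727), then WT anti-PD-1 replicate 3 (294) and replicate 4 (164). These tumors were spread over several groups, both untreated and treated. In bulk tissue, fewer cells of a type and less RNA per cell cannot be told apart.

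**Figure D1:**
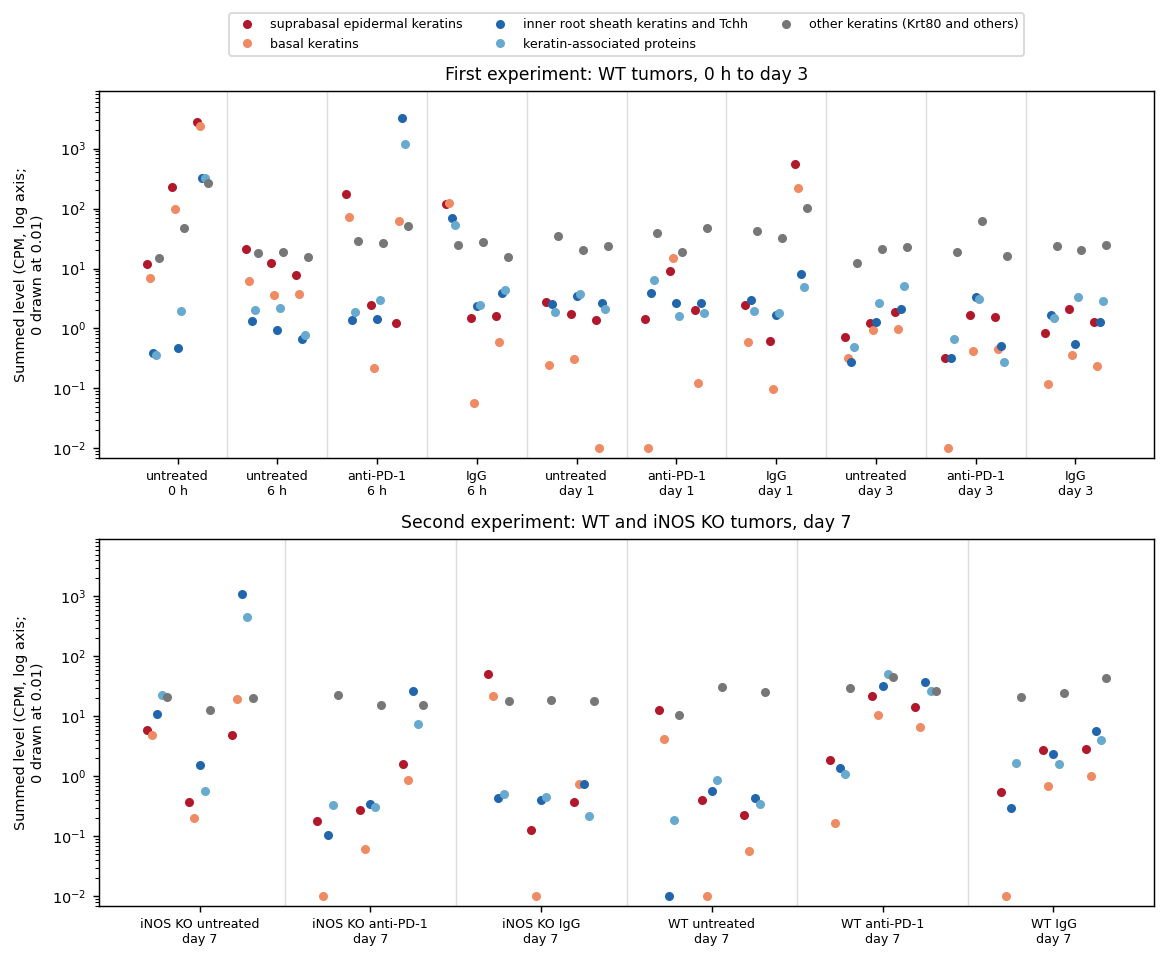
Summed level of 5 classes of members in each tumor, in CPM on a log axis with 0 drawn at 0.01; each group holds 3 tumors side by side, in the order of their replicate numbers, and points of 1 tumor are shifted slightly apart by class. Inner root sheath genes reach 3247 CPM in WT anti-PD-1 6 h replicate 5 and 1081 in labelled iNOS KO untreated replicate 4, suprabasal keratins reach 2802 in WT untreated 0 h replicate 3, and the grey class, led by Krt80, stays above 10 CPM in every tumor.

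The number of members seen was high in some of these tumors but not in all. A library held between 9 and 105 of the 111 genes above 3 counts. WT anti-PD-1 6 h replicate 5 held 98, labelled iNOS KO untreated replicate 4 held 94 and WT untreated 0 h replicate 3 held 87, while the 3 libraries with many receptor counts held 105, 93 and 90. WT IgG 6 h replicate 1 held 83. Other tumors with a high sum held fewer: WT IgG day 1 replicate 6 held 46, WT untreated 0 h replicate 2 32 and WT anti-PD-1 6 h replicate 1 28. WT untreated day 3 replicate 4, with a sum of 50.6 CPM, held 60. Over the first experiment, 110 of the members passed 3 counts in at least 1 library, the exception being Krtap27-1 (named for this), and over the second all 111 did. Only Krt80, Krt87 and Krt222 passed in each of the 48 libraries, with Tchh in each of the first 30. In the first experiment, 68 members had their highest level in WT anti-PD-1 6 h replicate 5 and 24 in WT untreated 0 h replicate 3. In the second, 58 had it in labelled iNOS KO untreated replicate 4 and 40 in WT anti-PD-1 replicate 3.

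The tumors with high sums were of at least 2 kinds. In WT anti-PD-1 6 h replicate 5, inner root sheath genes made up 66.3% of the members' level, keratin-associated genes of chromosome 11 17.8%, those of chromosome 16 6.35% and hair shaft keratins 5.16%. Basal keratins made up 1.24% there and suprabasal ones 0.0256%. Labelled iNOS KO untreated replicate 4, a tumor of the other experiment, had nearly the same make-up: 62.6% inner root sheath, 17.9% and 8.26% keratin-associated, 6.31% hair shaft, 1.14% basal and 0.288% suprabasal. By share, both were rich in hair genes and poor in epidermal ones. In CPM, their basal sums of 60.9 and 19.7 stood above the medians of their experiments, 0.524 and 0.724. Their suprabasal sums were 1.26 and 4.98, against medians of 1.95 and 1.74.

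The epidermal kind was the reverse. In WT IgG day 1 replicate 6, suprabasal keratins made up 57.6% and basal keratins 22.95%, with inner root sheath genes at 0.826%. In WT untreated 0 h replicate 3, suprabasal keratins made up 41.8% and basal ones 35.8%, but inner root sheath genes (321 CPM) and keratin-associated genes (326 CPM) were present as well. WT untreated 0 h replicate 2 and WT anti-PD-1 6 h replicate 1 were epidermal with little hair: suprabasal sums were 228 and 177 CPM, basal sums 98.6 and 71.5, and inner root sheath sums 0.47 and 1.41. WT IgG 6 h replicate 1 was mixed, with 118 suprabasal, 122 basal, 70.6 inner root sheath and 52.9 keratin-associated. At day 7 the epidermal pattern was seen at a lower level in labelled iNOS KO IgG replicate 1 (50.7 suprabasal, 21.5 basal, 0.44 inner root sheath) and the hair pattern in labelled iNOS KO anti-PD-1 replicate 3 (26.6 inner root sheath, 7.39 keratin-associated).

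Tchh was the most abundant hair member. At 6 h it stood at 1.41, 0.53 and 2499 CPM in the WT anti-PD-1 tumors, at 54.6, 1.35 and 1.40 in the IgG tumors and at 1.32, 0.46 and 0.14 in the untreated ones. At 0 h it stood at 0.32, 0.24 and 259. At day 7 the labelled iNOS KO untreated tumors had 1.38, 0.74 and 774, against 0, 0.40 and 0.43 in the WT untreated tumors. Where 1 tumor stood apart, the others of its group had at most 1.41 CPM.

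The inner root sheath keratins followed Tchh. Krt71, a type II keratin of all inner root sheath layers (chr15:101733949-101743109), stood at 264 CPM in WT anti-PD-1 6 h replicate 5, 122 in labelled iNOS KO untreated replicate 4 and 39.01 in WT untreated 0 h replicate 3, while the other tumors of those groups had 0 to 2.08. Krt25 stood at 152, 67.5 and 8.89 in the same order and Krt27, another type I partner, at 117, 50.8 and 10.2. Another 4, named after their values were seen, had the same order with wider gaps: Krt28 at 84.7, 26.1 and 1.52, Krt72 at 66.0, 18.9 and 1.09, Krt26 at 36.05, 12.9 and 0.43, and Krt73 at 27.96, 8.97 and 0.21. Krt26, Krt72 and Krt73 are best known from the cuticle of the inner root sheath.

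The ratios between the hair tumors varied by class. Among inner root sheath genes, the ratio of WT anti-PD-1 6 h replicate 5 to labelled iNOS KO untreated replicate 4 lay between 2.17 (Krt71) and 3.48 (Krt72) for 8 of 8, with a median of 2.96. It lay between 1.45 and 3.51 for the 17 keratin-associated genes of chromosome 11 with over 30 counts in both, between 1.55 and 3.26 for 13 hair shaft keratins, and between 2.85 and 3.82 for the 3 basal keratins. It was more spread in other classes, at 0.808 to 3.41 for 14 keratin-associated genes of chromosome 16, 1.17 to 3.86 for 4 of the other chromosomes, 0.901 and 2.71 for the companion layer and infundibulum, 1.77 and 2.51 for Krt6a and Krt17, and 0.637 to 3.58 for 3 of the other keratins. Against WT untreated 0 h replicate 3, the ratio was 9.64 for Tchh, 6.76 for Krt71, 17.1 for Krt25, 55.6 for Krt28, 60.2 for Krt72, 131 for Krt73 and 68.4 for Krt33a, but 2.55 for Krtap3-1 and 0.000347 for Krt10. These ratios compare single libraries and have no replicate check.

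**Figure D2:**
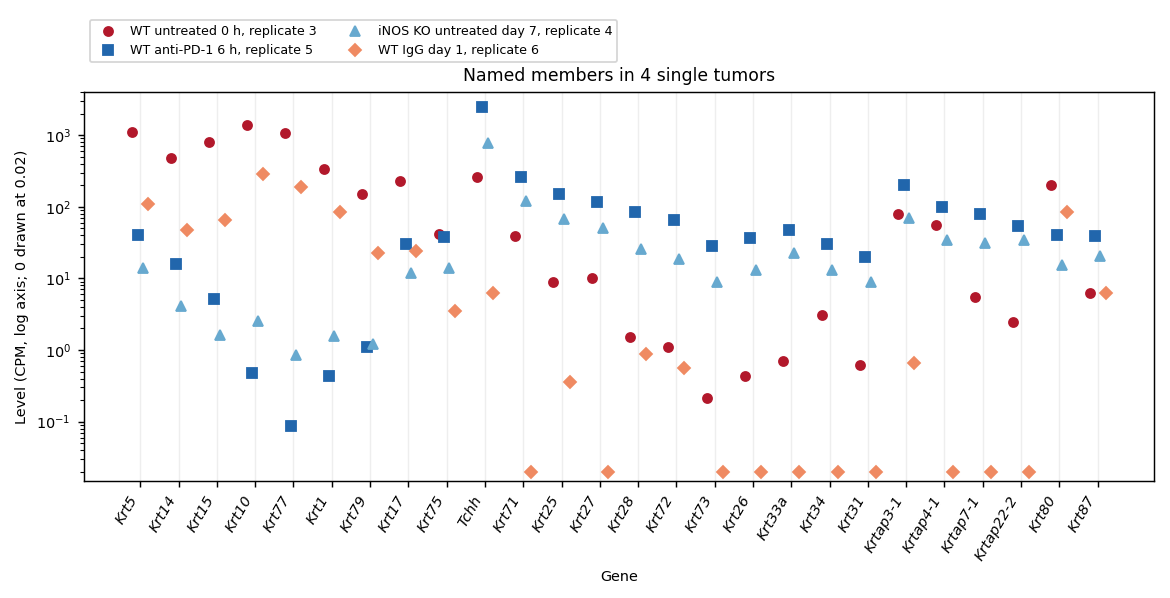
Level of 26 members in 4 single tumors, in CPM on a log axis with 0 drawn at 0.02; genes run from basal and suprabasal keratins on the left through inner root sheath, hair shaft and keratin-associated genes to Krt80 and Krt87. The blue tumors (WT anti-PD-1 6 h replicate 5 and labelled iNOS KO untreated day 7 replicate 4) are both high over the hair genes and at 0.49 and 2.57 CPM for Krt10, where the red tumor (WT untreated 0 h replicate 3) has 1398 and the orange one (WT IgG day 1 replicate 6) 286.

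Hair shaft genes stood high in the same libraries. Krt33a, Krt34 and Krt31, hair keratins of the cortex (Krt31 named after its values were seen), stood at 47.5, 30.4 and 20.1 CPM in WT anti-PD-1 6 h replicate 5 and at 22.4, 13.1 and 8.86 in labelled iNOS KO untreated replicate 4, but at 0.69, 3.04 and 0.61 in WT untreated 0 h replicate 3. Krt84, a type II hair keratin also known from nail and tongue and named after its values were seen, went the other way, with 1.46, 0.94 and 22.9 CPM.

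Among keratin-associated proteins, Krtap3-1, a high-sulfur protein gene (chr11:99566027-99566630), stood highest. It had 204 CPM in WT anti-PD-1 6 h replicate 5, 80.3 in WT untreated 0 h replicate 3, 69.1 in labelled iNOS KO untreated replicate 4 and 6.90 in WT IgG 6 h replicate 1, and at most 2.14 in any other tumor. Krtap4-1 stood at 98.8, 55.8 and 34.7 in the first 3. Krtap7-1, a high-glycine-tyrosine gene of the chromosome 16 cluster (chr16:89507703-89508323), had 80.3, 5.53 and 30.7 CPM there, so that the sum over chromosome 16 was 311 in WT anti-PD-1 6 h replicate 5 against 23.1 in WT untreated 0 h replicate 3, while the chromosome 11 sums were 872 and 300.1. The median tumor held 2.16 CPM of all 57 keratin-associated genes in the first experiment and 0.996 in the second. Several of these genes are near copies of each other, so the split of reads between neighbours is uncertain.

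Suprabasal keratins were high in other tumors. Krt10, the type I keratin of the suprabasal layers (chr11:99385254-99389364), stood at 6.49, 121 and 1398 CPM in the untreated tumors at 0 h, at 90.6, 0.60 and 0.49 in the anti-PD-1 tumors at 6 h, at 59.7, 0.75 and 0 in the IgG tumors at 6 h and at 1.46, 0.24 and 286 in the IgG tumors at day 1. The tumor richest in Tchh thus had a Krt10 level below 1 CPM. Krt77, a type II partner, followed Krt10 with 3.12, 69.3 and 1068 CPM at 0 h and 0.31, 0.22 and 186 in the IgG tumors at day 1, and was at 3 counts (0.0857 CPM) in WT anti-PD-1 6 h replicate 5. Krt1 stood at 2.13, 37.9 and 335 at 0 h.

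Basal keratins were found in both kinds. Krt5 (chr15:101707070-101712898) stood at 4.43, 48.8 and 1123 CPM at 0 h, at 109 in WT IgG day 1 replicate 6, at 39.9 in WT anti-PD-1 6 h replicate 5 and at 13.98 in labelled iNOS KO untreated replicate 4. Its partners differed. Krt14 (chr11:100203162-100207548) stood at 0.324 to 1.34 of Krt5, per kb of exon, over the 13 libraries with at least 30 counts of each. Krt15, known from the basal epidermis and the follicle bulge, stood at 0.879 of Krt5 per kb of exon in WT untreated 0 h replicate 3 and 0.741 in WT IgG day 1 replicate 6, but at 0.163 and 0.143 in the 2 hair tumors. Krt17, of appendages and wounded skin, stood at 225 CPM in WT untreated 0 h replicate 3, 29.99 and 11.97 in the hair tumors and 24.4 in WT IgG day 1 replicate 6. Krt75, of the companion layer around the inner root sheath, stood at 41.6 CPM in WT untreated 0 h replicate 3 and at 37.99 and 14.03 in the hair tumors, while Krt79, of the infundibulum and sebaceous duct, stood at 149, 1.09 and 1.205.

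Per kb of exon, type I and type II partners of a layer stayed within about the same level of each other over a wide range. The type I to type II ratio was 1.15 to 2.12 (median 1.71) for suprabasal keratins over 12 libraries, 0.512 to 1.41 (median 1.13) for basal keratins over 10 and 0.655 to 1.35 (median 1.22) for inner root sheath keratins over 7, taking libraries with at least 100 counts on each side. Over these libraries the suprabasal type II sum itself ran from 1.11 to 440 CPM per kb. The length of Krt1 used here, 4415 bases in 2 exon blocks, exceeds those of Krt10 (2114 in 8) and Krt77 (2931 in 9). If it holds bases outside the mature RNA, Krt1 is understated and the suprabasal ratio overstated, which was not tested. The basal ratio was lowest in the hair tumors, at 0.656 and 0.512, where Krt15 was low.

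**Figure D3:**
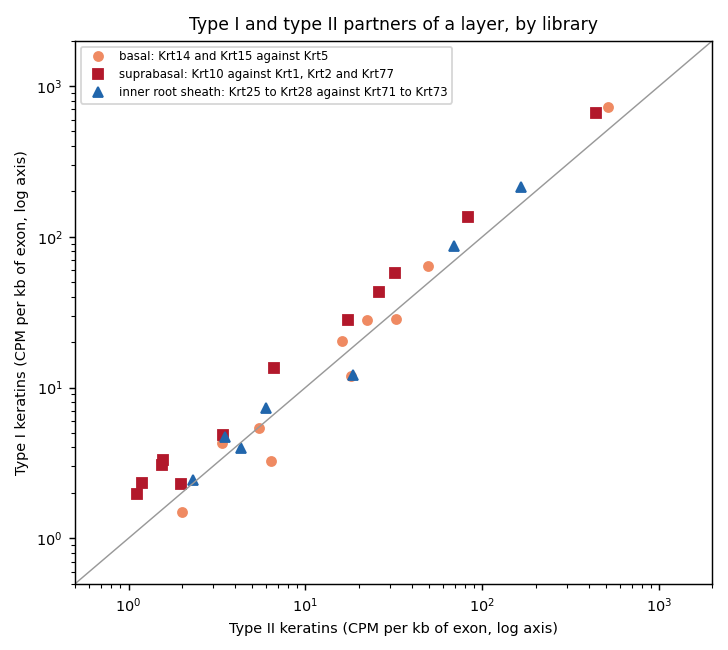
Type I against type II keratins of a layer in each library with at least 100 counts on each side, both in CPM per kb of exon on log axes, with a line of equal level. Suprabasal points (squares) all lie above the line, at ratios of 1.15 to 2.12 that depend on the 4415 bases taken for Krt1. Basal (circles) and inner root sheath points (triangles) lie on both sides of the line, at ratios of 0.512 to 1.41.

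Other genes of skin were read beside the keratins from lists. Cornified envelope genes, which encode the protein shell of dead epidermal cells, summed to 3565 CPM in WT untreated 0 h replicate 3, with 29 of 30 genes above 3 counts, and to 826 in WT IgG day 1 replicate 6, with 28. In WT anti-PD-1 6 h replicate 5 they summed to 336 with 21 of 30, and Flg2, Lce1b, Lce1c, Lce1f, Lce3c, Lor and Sprr2d, named for it, were at 0. In labelled iNOS KO untreated replicate 4 they summed to 168, with 22 of 30 above 3 counts and 7 at 0, and the medians of the experiments were 50.2 and 54.8. Lor (loricrin, the main envelope protein, named after its values were seen) had 398, 124 and 0 CPM in WT untreated 0 h replicate 3, WT IgG day 1 replicate 6 and WT anti-PD-1 6 h replicate 5. Hair follicle regulators and shaft partners summed to 761 CPM in WT untreated 0 h replicate 3, 306 in WT anti-PD-1 6 h replicate 5 and 182 in labelled iNOS KO untreated replicate 4, against medians of 91.0 and 101. Dlx3, a regulator of hair differentiation named after its values were seen, had 41.4, 45.7 and 18.9 CPM in these 3.

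Markers of other tissues beneath skin were high in some of the same tumors and in others with low keratin sums. Skeletal muscle genes summed to 9584 CPM in WT IgG day 1 replicate 6, 8039 in WT untreated 0 h replicate 3, 4514 in WT untreated 0 h replicate 2 and 1271 in WT anti-PD-1 6 h replicate 5, against a median of 103 in the first experiment. They also summed to 1484 in WT anti-PD-1 day 1 replicate 4, 1406 in WT untreated 6 h replicate 1 and 939 in WT untreated day 3 replicate 1, whose members summed to 64.1, 59.9 and 24.4, the last being the lowest of the experiment. In the second the median was 114 and the highest sum, 709, was in labelled iNOS KO IgG replicate 1, the day 7 tumor with the epidermal pattern, while labelled iNOS KO anti-PD-1 replicate 2, with a member sum of 24.5, had 534. Adipocyte genes and sebaceous gland genes were both highest in WT untreated 0 h replicate 3, at 971 and 246 CPM. The list of basal keratinocyte and desmosome genes was highest there too, at 5803 CPM, but its median of 1357 came mostly from Dst (dystonin), which every library held at a high level. Leukocyte genes ran from 118 to 790 CPM in the first experiment and from 53.4 to 766 in the second. The part of these tissues in the keratin levels was not tested.

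Only 3 keratins were found in every tumor, at high and low sums of the members alike. Krt80 (chr15:101347444-101370162), a type II keratin of many epithelia, ran from 10.6 to 203 CPM in the first experiment (median 21.7) and from 9.26 to 38.4 in the second (median 16.4). It overlaps an antisense gene, Gm35853, and how the counts treated strand is not stated in the sources used here. Krt87 (chr15:101431038-101438804), placed with the hair keratins, ran from 4.09 to 39.3 CPM (median 6.56) and from 4.74 to 20.4 (median 7.72). Its highest values were in WT anti-PD-1 6 h replicate 5 and labelled iNOS KO untreated replicate 4, the hair tumors, and the next were 11.7 and 11.1. Krt222 (chr11:99232761-99244085), a keratin-like gene known from outside epithelia, ran from 0.279 to 3.02 CPM (median 1.16) and from 0.560 to 5.11 (median 1.65). Krt87 and Krt222 were thus not higher in the epidermal tumors: Krt87 stood at 6.17 and Krt222 at 0.88 CPM in WT untreated 0 h replicate 3, where Krt80 was at its highest.

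Keratins of simple and mucosal epithelia stayed low. The medians were 0.613 and 0.543 CPM for Krt19, 0.194 and 0.228 for Krt7, and 0.157 and 0.0284 for Krt18 in the first and second experiments, the last being under the limit of 3 counts. The summed level of the 3 mucosal keratins (Krt4, Krt13 and Krt76) was at most 1.90 CPM in the first experiment. In the second it reached 13.4 in WT anti-PD-1 replicate 3, where the simple epithelial sum was also highest, at 24.7.

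That library was one of those with many receptor counts. The median member had 22.2 counts per kb of exon in WT anti-PD-1 day 7 replicate 3 and 13.4 in both replicate 4 and labelled iNOS KO untreated replicate 1, against receptor rates of 7.83, 4.45 and 3.87. In WT anti-PD-1 replicate 3, 0 members exceeded 10 times the receptor rate, and in each of the other 2 libraries 7 did, against 90 in WT anti-PD-1 6 h replicate 5, 88 in labelled iNOS KO untreated replicate 4 and 80 in WT untreated 0 h replicate 3, whose receptor rates were 0.528, 0.437 and 0.601. Fits that take this rate into account, as a covariate or by subtracting it by exonic length, are given with the comparisons. Whether the counts on receptor genes and on the members share a source was not tested.

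**Figure D4:**
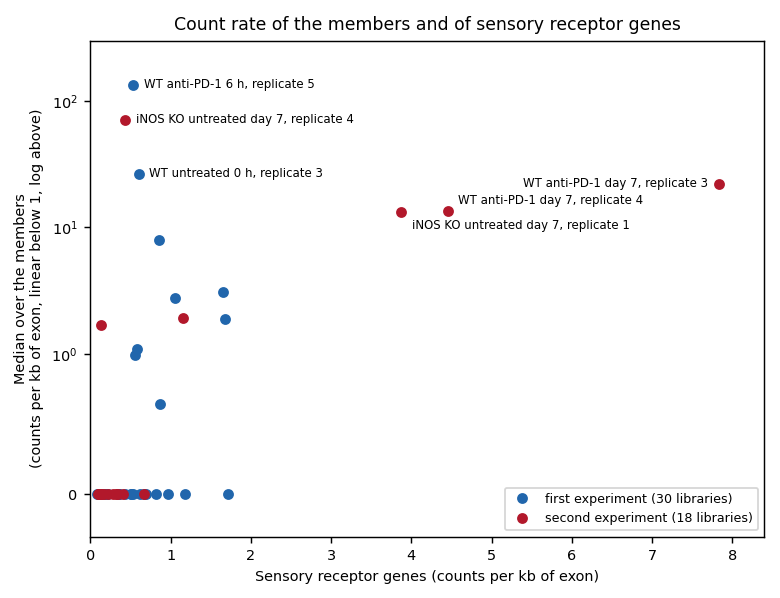
Median count rate of the 111 members against the count rate of 1502 sensory receptor genes, both in counts per kb of exon, 1 point per library; the vertical axis is linear below 1 and logarithmic above. The hair tumors and WT untreated 0 h replicate 3 lie high on the left, at medians of 134, 70.7 and 26.6 with receptor rates under 1, and 3 day 7 libraries lie to the right, at medians of 22.2, 13.4 and 13.4.

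The design asks whether the genes changed with treatment or host genotype. Of the members, 86 of 111 passed the filter on low counts in the first experiment and 94 in the second. A member needed enough counts in only about 3 libraries to pass, which could be the high ones of any group. In each of the 17 comparisons, 0 members were called by edgeR's quasi-likelihood test at a Benjamini-Hochberg adjusted p under 0.05. The share called among all genes tested was 0% in 15 of the comparisons, 0.188% for IgG against untreated in labelled iNOS KO hosts at day 7, and 0.587% for labelled iNOS KO against WT untreated tumors at day 7. Comparisons within an experiment share groups, and all use the same spread. Where a tumor was left out or the receptor rate was used, counts of members are mostly given without the share over all genes. Those counts show how far a result depends on a library, and nothing more is read from them.

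At 6 h, WT anti-PD-1 tumors were set against IgG tumors. At an unadjusted p under 0.05, 22 members were higher and 1 lower, where 0.778% of all 26848 genes were higher and 3.6% lower, and DESeq2 called 0 members and 0.00372% of all genes. Without WT anti-PD-1 replicate 5, 0 were higher and 6 lower. The higher members numbered 36 without IgG replicate 1, 10 without IgG replicate 2, 11 without IgG replicate 6, and 42 with the receptor rate as a covariate of the fit. For Tchh, from the values above, the log2 fold change was 5.45, and without anti-PD-1 replicate 5 it was -4.29. Krt87, with 8.13, 4.70 and 39.3 CPM against 6.78, 5.16 and 5.85, had a log2 fold change of 1.55 ± 0.50 (SE; edgeR adjusted p = 0.967), and 0.11 without replicate 5. No member had all 3 anti-PD-1 tumors above all 3 IgG tumors, where 2.13% of all genes did, and 2 (Krt7 and Krt8, the latter named after its values were seen) had them below, where 5.56% did.

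Between IgG and untreated tumors at 6 h, 6 members had an unadjusted p under 0.05 with a higher level and 0 with a lower one, against 3.53% and 1.89% of all genes, and DESeq2 called 1, against 0.0372% of all genes. All 3 IgG tumors lay above all 3 untreated tumors for 13 of the 86 members, 15.1%, where 5.86% of all genes did so. Tchh, Krt25, Krt33a and Krt75 were among them. For Krt25 the values were 3.48, 0.26 and 0.74 CPM against 0, 0.16 and 0.14, and 0 members had the reverse order, where 2.33% of genes did. The receptor rate was ordered alike, at 0.855, 0.816 and 1.18 counts per kb of exon with IgG against 0.089, 0.532 and 0.354 untreated. With that rate as a covariate the members at an unadjusted p under 0.05 were 0 higher and 2 lower, and with it subtracted 5 higher. They were 2 higher without untreated replicate 1 or 2, 0 without untreated replicate 4 and 3 without IgG replicate 1.

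At day 1, anti-PD-1 against IgG gave 0 higher and 8 lower members at an unadjusted p under 0.05 (1.1% and 2.53% of all genes), with DESeq2 calling 0 (0.00745% of all genes). IgG against untreated gave 9 higher and 0 lower (4.01% and 1.42%), with DESeq2 calling 3 (0.0931%). Both turned on WT IgG replicate 6. Krt10 had 0.58, 4.89 and 1.75 CPM with anti-PD-1 and 1.46, 0.24 and 286 with IgG, a log2 fold change of -5.30, which became 1.52 without that tumor. Without it the members at an unadjusted p under 0.05 numbered 0 higher and 1 lower for anti-PD-1 against IgG (5 and 2 lower without anti-PD-1 replicate 2 or 5), and 0 in either direction for IgG against untreated. All tumors given anti-PD-1 lay above all those given IgG for 0 members and below for 2, where 2.76% and 3.71% of all genes did, and IgG tumors lay above untreated ones for 3 and below for 2, where 6.25% and 6.35% did. In the latter comparison 21 of 28 cornified envelope genes and 14 of 14 skeletal muscle genes were also higher at an unadjusted p under 0.05 (4.01% of all genes), and 0 passed the adjusted threshold.

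At day 3 no tumor was among those with a high sum. Anti-PD-1 against IgG gave 0 higher and 1 lower member at an unadjusted p under 0.05 (0.518% and 1.62% of all genes), and IgG against untreated gave 1 and 1 (1.36% and 1.28%). DESeq2 called 3 and 2, against 0.0782% and 0.0559% of all genes. Krt10 had 0, 1.21 and 0.86 CPM with anti-PD-1, 0.56, 1.25 and 0.35 with IgG and 0.48, 0.46 and 0.47 untreated, so that the groups overlapped. Over all members, the anti-PD-1 tumors lay wholly above the IgG tumors for 1 and below for 2 (3.5% and 4.82% of all genes), and the IgG tumors wholly above the untreated ones for 1 and below for 5 (6.53% and 4.65%).

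In the untreated tumors the epidermal keratins were lower at day 1 and day 3 than at 6 h, but their measured values did not share 1 order by time. Krt10 ran from 6.49, 121 and 1398 CPM at 0 h to 10.2, 6.98 and 4.16 at 6 h, 2.16, 1.31 and 1.07 at day 1, and 0.48, 0.46 and 0.47 at day 3. At day 1 and day 3 each group lay wholly below the one before, while 0 h and 6 h overlapped. Krt5 had 4.43, 48.8 and 1123 at 0 h, 3.86, 2.06 and 2.11 at 6 h, 0.16, 0.085 and 0 at day 1, and 0.20, 0.30 and 0.33 at day 3. Its day 3 tumors thus lay above its day 1 tumors, on 8, 12 and 12 counts against 6, 3 and 0. Krt77 had 7.401, 2.73 and 2.47 at 6 h, 0.027, 0 and 0 at day 1, and 0, 0.46 and 0.41 at day 3. Its counts were 1, 0 and 0 at day 1 and 0, 18 and 15 at day 3. With day 1 counts near the limit of 3, the order of day 1 and day 3 is uncertain for both genes. Krt80 was higher in all day 1 tumors than in all 6 h tumors, with 14.1, 38.2 and 203 at 0 h, 16.2, 15.5 and 13.4 at 6 h, 32.4, 17.8 and 22.7 at day 1 and 10.6, 19.9 and 19.2 at day 3.

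**Figure D5:**
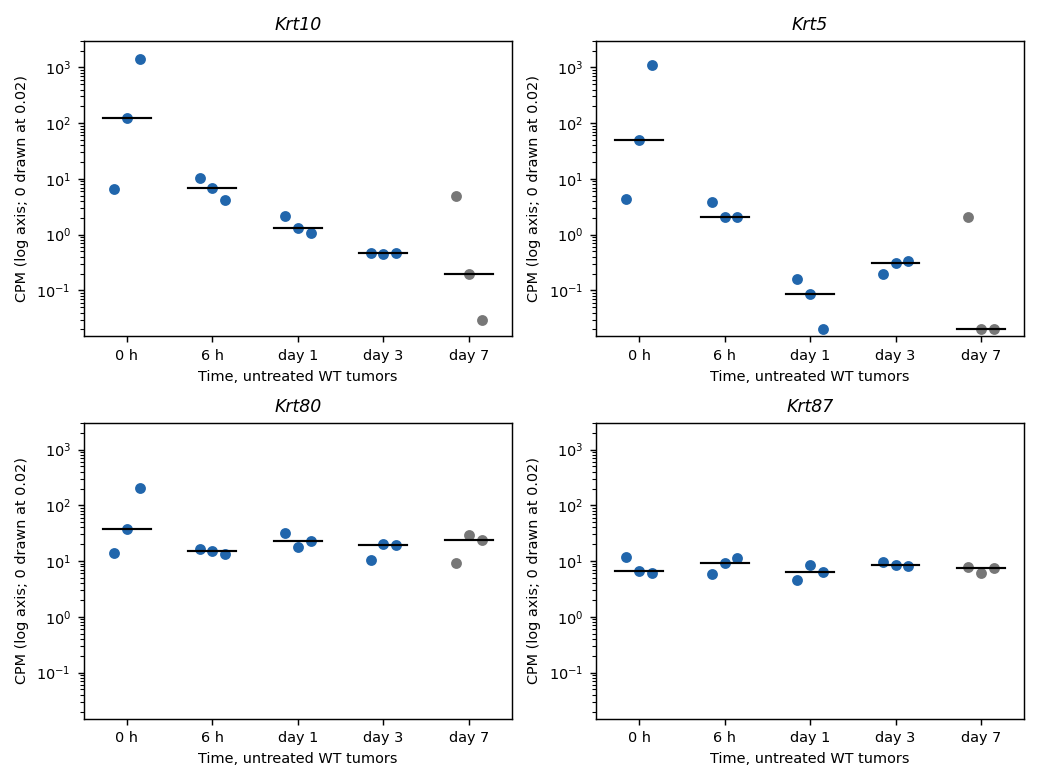
Level of 4 keratins in untreated WT tumors by time, in CPM on a log axis with 0 drawn at 0.02; points are tumors, bars are medians of 3, and the grey day 7 points come from the second experiment, normalized on its own. Krt10 has a median of 121 at 0 h and of 0.47 at day 3, with the 6 h, day 1 and day 3 groups wholly apart, whereas its day 7 points run from 0.029 to 4.84 and Krt80 has its 6 h group below its day 1 group.

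The 3 contrasts of these untreated groups were added after the values were seen, so they restate those values and test nothing. Day 3 against 0 h had 1 member higher and 32 lower at an unadjusted p under 0.05, against 2.2% and 4.69% of all genes, with 0 called by edgeR and 11 by DESeq2 (all lower), where DESeq2 called 0.808% of all genes. The log2 fold change was -10.08 for Krt10, -10.45 for Krt5 and -2.36 for Krt80, and without 0 h replicate 3 it was -7.07, -6.55 and -0.64. Without that tumor, those at an unadjusted p under 0.05 were 1 higher and 9 lower members, where 394 and 223 of all 26848 genes were.

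In day 3 against 0 h, 8 of 86 members had all day 3 tumors below all 0 h tumors, where 4.32% of all genes did, and 1 had them above, where 3.38% did. The 8 were Krt10, Krt15, Krt14, Krt17, Krt5, Krt1, Krt77 and Krt79. Each of these is an epidermal, appendage or infundibular keratin, and the same contrast had 24 of 28 cornified envelope genes and 17 of 18 basal keratinocyte and desmosome genes lower at an unadjusted p under 0.05 (4.69% of all genes), with 0 past the adjusted threshold. Day 3 against 6 h gave 2 members higher and 1 lower at an unadjusted p under 0.05, against 2.01% and 0.607% of all genes. Day 1 against 6 h gave 1 and 1 by that measure, against 2.08% and 1.05%. DESeq2 called 1 member in each, against 0.067% of all genes. In day 1 against 6 h all tumors lay below for 6 members (Krt10, Krt15, Krt14, Krt5, Krt1 and Krt77), where 2.96% of genes did, and above for 6, where 4% did. In day 3 against 6 h they lay below for 9 and above for 5, where 2.46% and 3.49% of genes did. Time and the amount of skin taken with a tumor cannot be told apart in these groups, since each time has its own 3 tumors.

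At day 7 the comparison of labelled iNOS KO with WT untreated tumors had 58 members higher and 1 lower of 94 at an unadjusted p under 0.05, where 13.1% and 3.37% of 30837 genes were. Labelled iNOS KO replicate 4 of this group is one of the tumors whose levels chose the genes. DESeq2 called 13 members, all higher, and 3.11% of all genes. Tchh had a log2 fold change of 9.88, and 1.93 without labelled iNOS KO replicate 4. Krtap4-7, named for it, had the lowest adjusted p of any member, at 0.0773 (edgeR). Without that replicate, 23 members were higher at an unadjusted p under 0.05. Replicate 1, the other tumor high in this group, had the receptor rate of 3.87 given above, and 55 were higher without it. With the receptor rate as a covariate 43 were higher. All 3 labelled iNOS KO tumors lay above all 3 WT tumors for 14 members (14.9%), where 9.7% of all genes did, and below for 0, where 8.02% did. Krt80 went the other way, with 9.49, 10.02 and 15.5 CPM against 9.26, 29.7 and 23.8, at -0.84 ± 0.35 (SE; edgeR adjusted p = 0.299), and at -0.50 without WT replicate 2.

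IgG against untreated tumors in labelled iNOS KO hosts, which shares the labelled iNOS KO untreated group, had 0 members higher and 68 lower at an unadjusted p under 0.05, against 2.95% and 12.7% of all genes, and 31 lower without untreated replicate 4 or 41 with the receptor rate as a covariate. DESeq2 called 14, all lower, and 2.3% of all genes. Tchh stood at 0.38, 0.15 and 0.27 CPM with IgG. Krt71 and Krtap3-1 were at 0 in all 3 IgG tumors, and no fold is given for them. In WT hosts the same contrast had 4 higher and 0 lower by unadjusted p (5.54% and 2.29%), with DESeq2 calling 1 (0.114% of all genes), and the higher members numbered 2 to 7 with 1 tumor left out (2 without untreated replicate 3, 7 without IgG replicate 1 or 2) and 0 with the receptor covariate. IgG tumors lay wholly above untreated ones for 1 member and below for 17 in labelled iNOS KO hosts (8.04% and 9.5% of all genes), and for 2 and 0 in WT hosts (6.78% and 6.06%).

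Anti-PD-1 against IgG at day 7 had 27 members higher and 0 lower in WT hosts by unadjusted p under 0.05, against 10.6% and 5.75% of all genes, with DESeq2 calling 0 members and 1.05% of genes. The higher members numbered 9 without IgG replicate 1, 12 without IgG replicate 2 or anti-PD-1 replicate 3, 41 when anti-PD-1 replicate 2 was left out, 2 with the receptor covariate and 23 with the rate subtracted. In labelled iNOS KO hosts 4 were higher and 5 lower, against 0.85% and 1.09%, with DESeq2 calling 1 (0.0713%). There 0 were higher without IgG replicate 2 or 3 or anti-PD-1 replicate 3 and 1 without IgG replicate 1, and the lower ones numbered 1 without anti-PD-1 replicate 1 or 2 and 2 without IgG replicate 1. Anti-PD-1 tumors lay wholly above IgG tumors for 8 members and below for 0 in WT hosts (8.93% and 2.89% of all genes), and for 1 and 1 in labelled iNOS KO hosts (3.32% and 3.77%). The difference between the hosts, tested itself, had 0 members higher and 16 lower at an unadjusted p under 0.05 (0.973% and 6.44% of all genes), 0 at the adjusted threshold and 1 by DESeq2 (0.0616% of all genes). The lower members numbered 10 without labelled iNOS KO IgG replicate 1, 12 without WT anti-PD-1 replicate 3, and 3 if the receptor rate was a covariate. In WT hosts Krt71 had 0, 5.56 and 5.71 CPM with anti-PD-1 and 0.15, 0.69 and 0.18 with IgG. The higher tumors were replicates 3 and 4, those with the receptor rates of 7.83 and 4.45. In labelled iNOS KO hosts it had 0, 0.062 and 4.69 against 0, 0 and 0, and the high tumor there, replicate 3, had a receptor rate of 0.129.

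Labelled iNOS KO against WT tumors given anti-PD-1 had 0 members higher and 47 lower of 94 by unadjusted p under 0.05, where 5.69% and 26.6% of all genes were, and DESeq2 called 15 (all lower) and 9.84% of all genes. The lower members numbered 23 without labelled iNOS KO replicate 1 or 2, 22 without WT replicate 3, 1 with the receptor covariate and 40 with the rate subtracted. All 3 labelled iNOS KO tumors lay below all 3 WT tumors for 25 members (26.6%), against 16.9% of all genes, and above for 0, against 5.42%. With IgG the same genotype contrast had 1 higher and 8 lower by that measure, against 2.15% and 4.12%, with DESeq2 calling 2 (0.12%), and its groups were wholly apart with labelled iNOS KO higher for 0 members and lower for 7 (5.73% and 6.42%). The lower members there numbered 3 without labelled iNOS KO replicate 2, 1 without replicate 3 and 3 without WT replicate 3, and the higher ones 5 and 4 without labelled iNOS KO replicates 2 and 3. Krt222 had 1.33, 0.56 and 1.19 CPM in labelled iNOS KO and 1.51, 5.11 and 3.00 in WT tumors given anti-PD-1, at -1.64 ± 0.57 (SE; edgeR adjusted p = 0.13), and at -0.64 with the receptor covariate. Its highest values were again in the libraries with high receptor rates. With the receptor rate as a covariate or subtracted, as in the fits without it, 0 members passed the adjusted threshold in the 17 comparisons.

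Of the 8 lists of other tissues, 0 genes passed the adjusted threshold in any comparison by edgeR. Between labelled iNOS KO and WT untreated tumors at day 7, 10 of 21 hair follicle regulators and shaft partners and 7 of 18 basal keratinocyte and desmosome genes were higher at an unadjusted p under 0.05 (13.1% of all genes), with 1 of the latter lower (3.37%). With anti-PD-1 against IgG at day 1, 16 of 28 cornified envelope genes were lower by the same measure (2.53% of all genes). In these contrasts 1 tumor carried the hair or the epidermal pattern, but list genes were also lower in others. For the difference between hosts at day 7, 11 of 24 cornified envelope and 6 of 21 hair list genes were lower (6.44% of all genes). Labelled iNOS KO against WT with anti-PD-1 had 10 of 24 and 8 of 21 lower (26.6% of all genes).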

How the data were processed

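Total RNA of fresh tumors was made into strand-specific libraries and sequenced. Per the submitters' processing notes and the study's methods, adapters were removed with cutadapt 1.8.1, reads were aligned to mm10 with STAR 2.7.7a, and counts per gene were estimated with RSEM 1.3.0 on GENCODE vM21. The deposited table holds whole-number counts without normalization. Its name points to another counting program, the values do not show which was used, and the strand setting is not given in the sources used here. Groups were taken from sample titles, with 6 h and day 7 as the study gives them. The treatment and time fields conflict with the titles in most samples, and the genotype field reads WT for all 48 although 9 titles say KO, so every comparison rests on the titles.

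Each experiment was fitted apart in R 4.3.3 with edgeR 4.0.16: TMM, filterByExpr with a minimum count of 10, 1 coefficient per group, quasi-likelihood test, Benjamini-Hochberg adjustment over all 26848 or 30837 genes and a threshold of 0.05. Residual degrees of freedom were 20 and 12, and the common coefficient of variation was 0.671 and 0.786. DESeq2 1.42.0 was an alternative. The fit was also run on simulated counts in which changed genes differed alike in every tumor of a group. That run does not cover changes carried by 1 tumor, and nothing about the members is read from it. Levels, ratios and figures were computed with Python 3.11.15 and matplotlib 3.10.9. Replicates of a group were compared for copies, and none was found (chi-square per gene 16.2 to 411). P-values measure the spread between tumors of 1 experiment.

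The members and all lists were chosen with earlier results of these data known. Named genes were those with the highest mean CPM in each class (up to 4 for keratins, 5 for keratin-associated proteins), Tchh, members past the threshold, and 2 genes per list. Keratins were classed by the layer they are known from, and keratin-associated genes by chromosome, since protein sequences were not used here. Members overlapping another gene numbered 3 on the same strand and 12 on the opposite strand.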

Additional observations from a re-analysis of the deposited data

How the results depend on the processing

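The count of members called was 0 in all 17 comparisons with DESeq2 size factors and with the receptor rate as covariate or subtracted. DESeq2's Wald test called members in 14 comparisons: 3 for anti-PD-1 against IgG at day 3 and 1 at day 7 in labelled iNOS KO hosts; for IgG against untreated, 1 at 6 h, 3 at day 1, 2 at day 3, and at day 7 1 in WT and 14 in labelled iNOS KO hosts; for labelled iNOS KO against WT, 13 untreated, 2 with IgG and 15 with anti-PD-1; 1 for the difference between hosts; and 11, 1 and 1 for untreated day 3 against 0 h, day 1 against 6 h and day 3 against 6 h. Without a filter on low counts, 8 were called for IgG against untreated at day 1; at day 7, 24 and 14 for anti-PD-1 against IgG and 7 and 46 for IgG against untreated in WT and labelled iNOS KO hosts, 45, 8 and 47 for genotype in untreated, IgG and anti-PD-1 tumors and 15 for the difference between hosts; and 29 for untreated day 3 against 0 h. With only the groups compared in the fit, 41 were called for IgG against untreated in labelled iNOS KO hosts, and 39 and 4 for genotype in untreated and anti-PD-1 tumors. The cause of these differences was not tested. Without a filter, untreated day 3 against 0 h had 394 genes called lower and 3 higher of 49294 tested, beside 29 of 110 members. For the other counts without a filter, with only the groups compared or with a replicate block, shares over all genes are not given. Nothing about the members is read from them. A replicate block gave 7 lower members for IgG against untreated in labelled iNOS KO hosts and 8 higher for genotype in untreated tumors, and 0 elsewhere. Replicate numbers did not pair the samples: the median correlation of same-numbered libraries was -0.08 over 65 pairs and -0.02 over 36, with 19 and 9 above 0.1.

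Leaving out 1 tumor gave 0 called members in 103 of 108 fits. The range was 0 to 3 for anti-PD-1 against IgG in WT hosts at day 7 (3 without WT anti-PD-1 replicate 2), 0 to 7 for genotype in untreated tumors (3 without labelled iNOS KO replicate 1, 7 without replicate 2), 0 to 23 for genotype with anti-PD-1 (23 without WT replicate 2) and 0 to 2 for untreated day 3 against 0 h (2 without 0 h replicate 1). In that last fit 59 of 26848 genes were called lower and 0 higher, and shares over all genes are not given for the other fits. Of the 10 fold changes recomputed under each alternative, 2 changed direction. Leaving out 1 tumor in turn, the log2 fold change of Tchh for anti-PD-1 against IgG at 6 h ran from -4.29 (without WT anti-PD-1 replicate 5) to 9.24 (without WT IgG replicate 1), and that of Krt10 at day 1 from -6.33 (without WT anti-PD-1 replicate 4) to 1.52 (without WT IgG replicate 6). In some groups the mean of the summed members rests on 1 tumor, as in WT anti-PD-1 at 6 h (mean 1750 CPM, SD 2732). In others the tumors were alike, as in WT anti-PD-1 at day 1 (mean 65.3 CPM, SD 2.65).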
